A study of Mus musculus with 6 samples.

Results

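The profile described here is that of diluent MS5 cells, grown without the MEK inhibitor. MS5 is an established stromal line from mouse bone marrow. The profile rests on the 3 arrays whose agent is given as control, out of 6 arrays in the series. The values of the 3 MEKi arrays were not used. Each array holds total RNA of 1 of 3 independent cultures, named culture 1, 2 and 3 after the series number in the labels. The cells grew in alpha-MEM with FBS and received DMSO for 7 days, and RNA was hybridised to Affymetrix mouse Gene 1.0 ST arrays. The cultures come from a single line, so they share 1 origin and carry no spread between animals, and 1 array per culture means that culture and array cannot be told apart.

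Bone marrow stroma holds and feeds blood-forming cells. Stromal cells lay down a collagen and fibronectin matrix, retain progenitors with the chemokine CXCL12 and the adhesion molecule VCAM1, and keep them alive with stem cell factor, the product of Kitl. Marrow stromal cells are also close kin of fat and bone cells, and MS5 cells are widely used as feeder layers for human and mouse progenitors.

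Levels are the deposited log2 values after RMA, in which 1 unit is a doubling of the array signal. The arrays read 28853 probe sets, of which 21789 named 1 gene, and these covered 19938 genes. Medians over all probe sets were 6.29, 6.29 and 6.32 in cultures 1, 2 and 3. The background reference was the 95th percentile of 1240 probe sets for odorant, vomeronasal and taste receptors, genes of chemosensory cells. It stood at 5.73, 5.63 and 5.66. A total of 12301 genes, 61.7% of all, lay above it in all 3 cultures, 911 in some only and 6726 in none. Probe sets differ in how well they bind, so ranks order array signals and not amounts of mRNA. The 22 measured genes of a cytosolic ribosomal protein list, whose products join the same particle, ranged from 6.44 for Rplp2 to 13.02 for Rplp0.

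**Figure D1:**
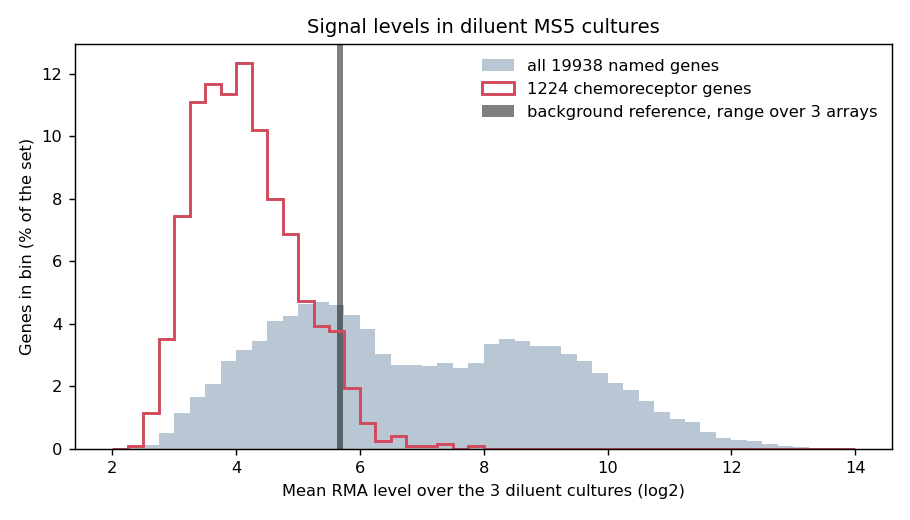
Distribution of mean RMA levels (log2, x axis) over the 3 diluent cultures, as a percentage of each set (y axis), for all 19938 named genes (filled) and 1224 chemoreceptor genes (line). The dark band is the background reference over the 3 arrays, 5.63 to 5.73; the chemoreceptor genes have a median of 4.07 and all named genes one of 6.64, with a second hump of genes at higher levels.

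The highest signals in diluent MS5 cells came from structural RNAs, translation, the cytoskeleton, iron storage and secreted matrix. Rn7sk, a small nuclear RNA that holds back transcription elongation, measured 13.69, 13.69 and 13.65 in cultures 1, 2 and 3 and ranked at 1. Actb, cytoplasmic actin, measured 13.51, 13.60 and 13.47 and ranked at 4, after the small cytoplasmic Y RNA Rny3 at 13.56, 13.57 and 13.54, and the intermediate filament gene Vim measured 13.25, 13.23 and 13.27. Rn7sk, Actb and Vim differed between cultures by at most 1.09-fold. Fn1, the adhesive matrix glycoprotein fibronectin, measured 13.30, 13.22 and 13.22 and ranked at 9 among all genes. Thbs2, a matrix-bound thrombospondin, and Bgn, the small proteoglycan biglycan, were also among the 30 highest, with means of 12.98 and 12.92.

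Among the same 30 were the translation factors Eef1a1 and Eef2, the ferritin chains Fth1 and Ftl1, Cst3, the secreted protease inhibitor cystatin C, the lysosomal gene Psap, the thiol reductant Txn1, the galectin Lgals1 and the glycolytic enzyme Aldoa. Baiap2l1 ranked at 2 with 13.64, but its other probe sets averaged 10.25 and 4.66, so that its rank belongs to 1 probe set. Of the 100 genes highest in each array, 69 were shared by all 3 cultures.

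The stromal identity of the cultures was read from a list of mesenchymal markers. Of 33 measured, 25 (75.8%, against 61.7% of all genes) were above the reference in all 3 cultures. The median percentile of the list among all genes was 72.5. S100a4, a calcium-binding protein of fibroblasts, measured 12.09, 12.15 and 11.95. The PDGF receptor genes Pdgfrb and Pdgfra measured 12.11, 11.99 and 11.74 and 11.71, 11.45 and 11.89, respectively. Prrx1, a homeobox factor of limb and marrow mesenchyme, was nearly the same in each culture at 11.72, 11.70 and 11.72.

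Of the same list, 6 genes that are often used to define marrow stroma were not above the reference in any culture. Lepr, the leptin receptor that marks perivascular stroma in adult marrow, measured 4.17, 4.08 and 4.25. Nes, the filament gene nestin, measured 4.97, 4.96 and 4.78, and Nt5e, the surface marker CD73, measured 4.71, 4.80 and 5.03. Cspg4, Cd200 and Lum were the others, with means down to 3.23. Thy1 was at the reference with 5.63, 5.57 and 5.66, and Dcn, the collagen-binding proteoglycan decorin, was above it in 2 cultures only, at 7.34, 5.47 and 5.76.

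Markers of other lineages were mostly low. Of 36 haematopoietic markers, 10 (27.8%, against 61.7% of all genes) were above the reference, and the median percentile was 29.5. The pan-leukocyte gene Ptprc measured 5.01, 4.88 and 4.92, the macrophage gene Adgre1 4.23, 4.20 and 4.12, and Itgam 5.11, 5.01 and 5.13, all below the reference. The exception was Cd68, a lysosomal glycoprotein abundant in macrophages, at 10.62, 9.10 and 11.41; its values were lowest in culture 2 and spread 4.95-fold. Lyz2, which encodes lysozyme, followed at 8.47, 7.72 and 7.37, and Epor, Cd53, Itga2b, Elane, Cd14, Spn, Cd3e and Csf1r lay between 5.75 and 7.35 on average. In RNA of a whole culture, fewer cells of a type and less RNA per cell cannot be told apart.

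Of 20 endothelial markers, 5 were above the reference. Eng, the TGF-beta co-receptor that stroma also carries, stood at 11.18, 10.65 and 10.53, while Pecam1 measured 4.77, 4.93 and 4.75, Cdh5 5.18, 5.16 and 5.05, and Kdr 4.61 in each culture. The other 4 were Egfl7, Vwf, Tie1 and Esam, with means between 5.81 and 7.12. Of 14 epithelial markers 5 (35.7%) passed. They were Krt8, Cldn3, Cldn4, Krt18 and Esrp2, with means of at most 6.94. The adhesion genes Epcam and Cdh1 did not pass.

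Of 14 neuronal and glial markers 3 (21.4%, against 61.7% of all genes) passed, Mbp, Gad1 and Elavl3, none with a mean above 6.11. Of 11 hepatocyte markers 3 (27.3%) passed, Apoa1, Hnf4a and Apoa2, while Alb, the albumin gene, measured 4.52, 4.53 and 4.63. The counts for these low lists depended on the reference. At the 99th percentile of the chemoreceptors they were 2 endothelial, 1 epithelial, 0 neuronal and 1 hepatocyte gene, while the mesenchymal count differed by less than 1.5-fold.

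**Figure D2:**
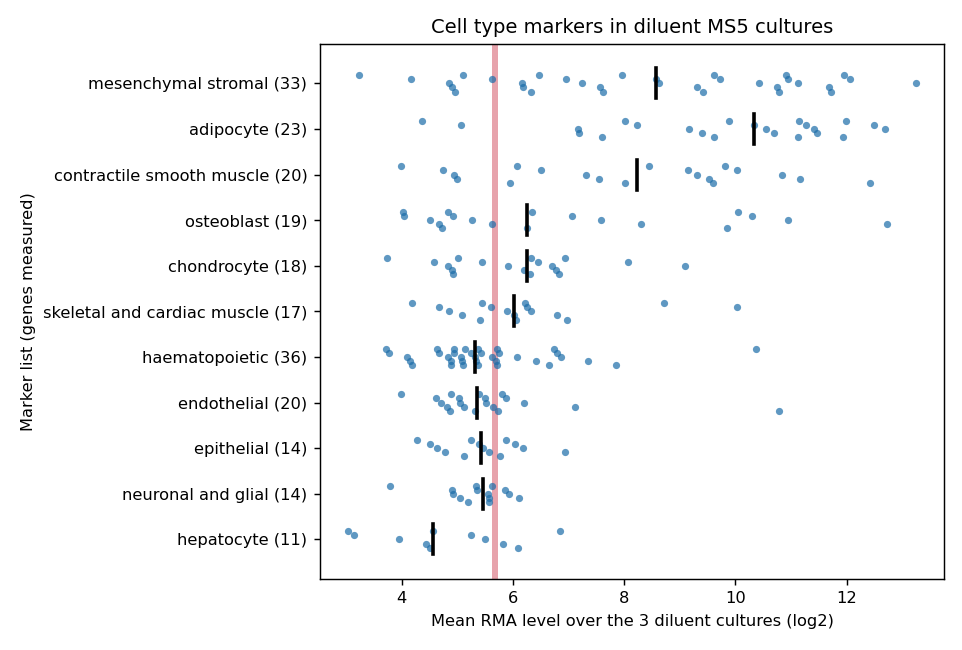
Mean RMA level (log2, x axis) over the 3 diluent cultures for each measured gene of 11 marker lists (rows, with the number of genes). Points are genes, black bars are list medians and the red band is the background reference; the mesenchymal (8.58), adipocyte (10.34) and smooth muscle (8.23) medians lie to the right of the band, and the haematopoietic (5.33) and hepatocyte (4.56) medians to its left.

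The mesenchymal list had company from fat and contractile genes. The fat cell list was the highest of the cell type lists. Of its 23 genes, 21 (91.3%, against 61.7% of all genes) were above the reference, and the median percentile was 92.5. Lpl, the lipase that frees fatty acids from lipoproteins, measured 12.27, 12.76 and 12.45. Adipoq, the fat cell hormone adiponectin, measured 11.30, 12.50 and 11.98, and Pparg, the master regulator of fat cell formation, 10.90, 11.64 and 11.68. Plin2, a lipid droplet coat protein, measured 11.86, 11.89 and 12.21. Lep, which encodes leptin, was below the reference at 5.21, 5.14 and 4.87.

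Of 20 contractile smooth muscle genes, 16 (80.0%, against 61.7% of all genes) were above the reference. Acta2, smooth muscle actin, measured 12.52, 12.41 and 12.33 and the actin-binding gene Cnn2 11.44, 11.35 and 10.72. Des, which encodes desmin, measured 10.09, 9.96 and 10.06. Myh11, the smooth muscle myosin, stood just over the reference at 5.90, 5.96 and 5.99, and its coactivator Myocd was below it at 4.62, 5.11 and 5.08.

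Among 17 skeletal and cardiac muscle genes 10 (58.8%, against 61.7% of all genes) passed. The highest were Des and Acta1, skeletal actin, the latter at 8.29, 9.04 and 8.82. The other 8, Tnnt3, Actc1, Mb, Ckm, Myod1, Tnnt2, Tnni3 and Myh7, had means from 5.89 to 6.97. At the 99th percentile 4 genes were left.

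Bone and cartilage lists passed at 52.6% and 61.1%, against 61.7% of all genes. Of 19 osteoblast genes, 10 were above the reference, among them the matrix genes Sparc (12.75, 12.86 and 12.58) and Col1a1 (11.07, 11.01 and 10.77). Alpl, the tissue alkaline phosphatase, measured 6.40, 8.41 and 7.94, a 4.01-fold range with culture 1 lowest. Sp7, the osteoblast factor osterix, measured 4.80, 4.87 and 4.82, and Ibsp, bone sialoprotein, 3.93, 4.03 and 4.09.

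Mgp, Pdpn, Ank, Atf4, Tnfsf11, Dlx3 and Sost were the remaining osteoblast list genes above the reference, the last 2 with means of 6.34 and 6.25. Of 18 cartilage genes 11 passed, led by Prg4, the joint lubricant lubricin, at 8.79, 9.45 and 9.06, then Col11a1 at 8.24, 8.18 and 7.81. Col2a1, Col11a2, Ihh, Col10a1, Sox9, Col9a1, Sox5, Comp and Sox6 averaged 6.94 or less. The core cartilage proteoglycan Acan was below the reference in each culture, and 7 cartilage genes were left at the 99th percentile.

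The matrix made by diluent MS5 cells was read from 5 lists. Of 31 collagen chains, 30 (96.8%, against 61.7% of all genes) were above the reference. Their median percentile was only 56.7, since many stood close to the reference. The chains of collagen VI, a beaded filament collagen, led: Col6a3 measured 11.96, 12.05 and 12.00, Col6a1 11.75, 11.66 and 11.34, and Col6a2 11.70, 11.51 and 11.12. Col1a2, the partner chain of Col1a1, measured 11.08, 11.02 and 10.63. Col8a1, a short-chain collagen, had the largest range of the list, with 11.53, 11.16 and 10.33.

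Enzymes that modify and crosslink collagen ranked higher than the chains, with a median percentile of 95.2. Of 18 such genes, 17 (94.4%, against 61.7% of all genes) were above the reference. Pcolce, which enhances cleavage of procollagen ends, measured 13.03, 12.78 and 12.55. Lox, the copper enzyme that starts crosslinks, measured 12.24, 12.37 and 12.41. P4hb, Bmp1, Ppib and Plod1, genes for the prolyl hydroxylase partner subunit, the procollagen C-proteinase, a peptidyl-prolyl isomerase and a lysyl hydroxylase, averaged between 11.19 and 11.88.

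Among 39 matrix glycoproteins 33 (84.6%, against 61.7% of all genes) were above the reference, with a median percentile of 84.8. Igfbp7, an insulin-like growth factor binding protein of the matrix, measured 12.61, 12.60 and 12.55. Efemp1 and Fbln2, both fibulins, measured 12.26, 11.90 and 11.92 and 12.01, 11.50 and 11.87. Tnc, the injury-related glycoprotein tenascin C, was below the reference in each culture.

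Of 25 proteoglycan genes 14 (56.0%, against 61.7% of all genes) passed. Among them were Vcan, large versican, at 11.88, 11.90 and 11.99, and the syndecan Sdc1 at 11.56, 11.11 and 11.30. Ogn, osteoglycin, measured 11.01, 11.50 and 10.57. Of 34 proteases and inhibitors 28 (82.4%) passed. Mmp2, gelatinase A, measured 12.72, 12.75 and 12.97. Its activator Mmp14 measured 12.05, 11.72 and 11.71 and their inhibitor Timp2 11.97, 11.85 and 11.70. Timp3, another inhibitor of the family, was below the reference at 4.58, 4.79 and 4.71.

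Signals that stroma sends to blood-forming cells were split between a high and a low set. Of 36 niche factors, 20 were above the reference in all 3 cultures, against 61.7% of all genes, and none had a 2-fold range. Cxcl12, which retains stem cells in the marrow, measured 12.16, 12.12 and 11.79. Kitl, stem cell factor, measured 11.27, 11.54 and 11.42. The transforming growth factor gene Tgfb1 measured 10.82, 10.63 and 10.76.

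Angpt1, the ligand of the receptor TIE2, measured 10.12, 10.52 and 10.02. Igf1 measured 10.13, 10.34 and 9.96 and Igf2 10.42, 10.59 and 10.43; both encode insulin-like growth factors that act on progenitors. Csf1, the macrophage growth factor, was highest in culture 1 with 10.37, 10.11 and 9.92. Vcam1 measured 9.98, 10.00 and 9.73. Icam1, another adhesion gene, measured 6.21, 6.30 and 6.38.

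Notch ligands and interleukins were also on the list. The Notch ligand gene Jag1 measured 8.87, 8.58 and 8.38, Dll1 6.26, 6.14 and 6.20, and Dll4, the ligand that drives T cell commitment in the thymus, 5.46, 5.51 and 5.68. Dll4 was thus above the reference in culture 3 only. Il7, the growth factor of early lymphocytes, measured 5.26, 5.36 and 4.73 and Il6 3.39, 3.48 and 3.41, both below the reference in every culture. Csf2, Epo, Il3, Il5 and Tslp, cytokines of myeloid, erythroid and lymphoid cells, were also below it.

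**Figure D3:**
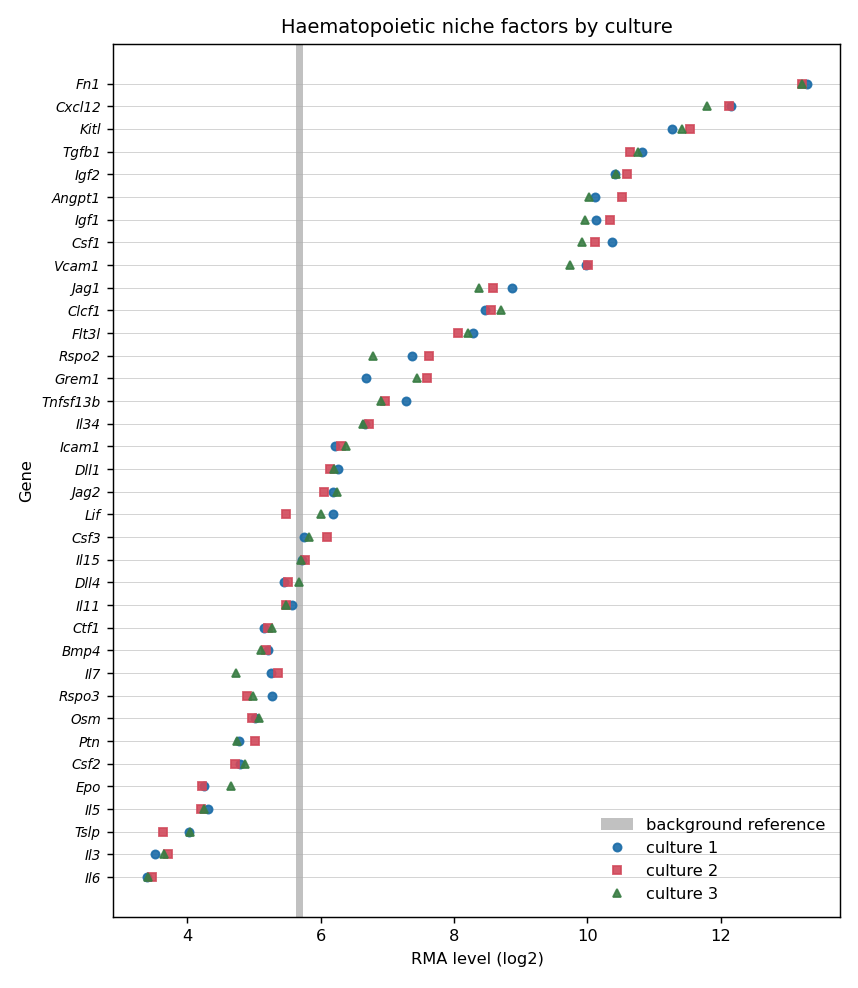
RMA level (log2, x axis) of 36 niche factor genes (rows, by mean) in diluent culture 1 (circles), 2 (squares) and 3 (triangles), with the background reference as a grey band. The 3 points of a gene lie close together, with Cxcl12 between 11.79 and 12.16, while the genes spread from 3.43 (Il6) to 13.25 (Fn1).

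Il18, the cytokine that the study examined in stroma, lay near the middle of all genes, at percentile 48.9. It measured 6.62, 6.63 and 6.37, above the reference in each culture and 1.20-fold apart at most. Casp1, the protease that matures it, measured 8.46, 8.75 and 8.38, and Il18bp, its soluble decoy, 7.32, 7.34 and 7.34. The receptor chains Il18r1 and Il18rap were below the reference, with 4.11, 3.99 and 4.07 and 5.04, 5.16 and 5.19.

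Over the 27 genes of the IL-1 family and inflammasome, 12 (44.4%, against 61.7% of all genes) were above the reference. Il1rn, the antagonist of the interleukin 1 receptor, was the highest, at 10.90, 11.62 and 10.85, while Il1b measured 5.19, 5.20 and 5.20 and Il1a 3.90, 3.48 and 3.59. The adaptors and kinases Myd88, Irak1, Traf6 and Irak2 averaged 8.54 or more. The Notch target Hes1 measured 6.74, 6.20 and 6.63 and the Notch regulator Dtx1 6.40, 6.46 and 6.47. Tnf was below the reference in all cultures at 5.29, 5.21 and 5.31.

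Of 28 chemokines, 14 were above the reference. After Cxcl12 came Ccl7, at 11.21, 11.32 and 10.27, and Ccl2, at 10.63, 10.53 and 9.39, both attractants of monocytes. Ccl9, a further monocyte attractant, measured 9.30, 9.08 and 8.09. These 3 monocyte attractants were the only chemokines with a 2-fold range, and each was lowest in culture 3. Cxcl10, Cxcl2 and Cxcl13 were below the reference.

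Among 57 growth factors and morphogens 40 (70.2%, against 61.7% of all genes) passed. The highest was Gas6, ligand of the AXL receptor, at 12.33, 11.94 and 11.34. The cell communication network genes Ccn5, Ccn2 and Ccn1 averaged 11.49, 10.89 and 10.69. Sfrp1, a secreted WNT antagonist, had the largest range of the list, 9.30, 8.29 and 7.14, and was picked after its values were seen. Bmp4 and Wnt5a were below the reference, with means of 5.16 and 4.78.

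Genes of the pathway that the MEK inhibitor acts on were above the reference at baseline. These are RNA signals, and the activity of the pathway was not measured. All 23 measured genes of the RAS, RAF, MEK and ERK chain were above the reference, against 61.7% of all genes. Their median percentile was 86.7 and none had a 2-fold range between cultures. Map2k1 and Map2k2, which encode MEK1 and MEK2, measured 9.89, 9.39 and 9.80 and 9.82, 9.62 and 9.40. Braf measured 9.84, 9.83 and 10.04 and Nras 8.86, 8.91 and 8.85. Genes that ERK signalling induces were above the reference in 29 of 31 cases (93.5%, against 61.7% of all genes). Of these, Dusp1 measured 10.63, 9.93 and 10.29, Egr1 10.21, 9.65 and 10.13, and Hmga2, Ccnd1, Spred1 and Myc averaged 9.23 to 9.87. Of the 30 ERK-induced genes above the reference in at least 1 culture, 21 were lowest in culture 2, against 27.6% of all genes. A further 7 were lowest in culture 1, against 41.2% of all. The median SD of the 30 was 0.339, against 0.135 over all such genes, and 6 had a 2-fold range, against 2.66% of all. The feedback inhibitor Spry4, picked after its values were seen, ran otherwise. It measured 6.92, 9.09 and 8.20, a 4.51-fold range with culture 1 lowest.

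Of 35 receptor tyrosine kinases, 21 (60.0%, against 61.7% of all genes) were above the reference, led by the PDGF receptors, the collagen receptor Ddr2 (11.70, 11.49 and 11.54), Axl and Fgfr1. Kit, the receptor of stem cell factor, measured 5.24, 5.44 and 5.45 and was below the reference, while its ligand gene Kitl was above it. Of 26 cytokine receptor genes 23 (88.5%) passed. They were led by Ghr, the growth hormone receptor, at 11.28, 11.75 and 11.38, and Il6st, the shared signalling chain of the interleukin 6 family, at 11.40, 11.24 and 11.04. Of 32 receptors for TGF-beta, BMP, WNT, hedgehog and Notch ligands, 27 (84.4%) passed, with Smo, Bmpr2, Tgfbr3 and Notch2 between 10.97 and 11.32 on average. Of 26 integrins 15 (57.7%) passed. The fibronectin and vitronectin receptor subunits Itgb5 and Itga5 measured 11.75, 11.55 and 11.42 and 11.30, 11.03 and 11.26.

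Transcription factors of mesenchyme and position had median SDs between cultures below that of all genes. Of 54 mesenchymal factors 39 (72.2%, against 61.7% of all genes) passed. Over the 45 above the reference in at least 1 culture, the median SD was 0.079, against 0.135 over all such genes. Of these 45, 1 had a 2-fold range (2.22%, against 2.66% of all), and 6 had at least 1.5-fold, against 11.2% of all. The median level of the list was 6.91, and over all genes spread was smaller at low levels. Besides Prrx1, Ebf1 measured 11.08, 11.26 and 11.02; it marks marrow stroma that makes CXCL12. Zeb2 and Snai2, repressors of epithelial genes, averaged 10.84 and 10.66.

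Of 37 HOX genes, which record position along the body axis, 27 (73.0%) passed. The median SD of the HOX list was 0.105, and none of its genes had a 2-fold range. Its median level was 6.81, and all genes with means from 5.90 to 7.59 had a median SD of 0.112, close to that of the list. Hoxa9 measured 9.69, 9.94 and 10.04, Hoxc10 9.59, 9.27 and 9.49, and Hoxc6 8.85, 9.06 and 9.24. The HOX genes farthest toward the tail, Hoxa13, Hoxb13 and Hoxd13, averaged 4.65 to 5.03 and were below the reference, while Hoxc13 measured 8.24, 8.38 and 7.65.

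The 3 cultures agree within 1.5-fold for most genes. Across genes, pairs of arrays correlated by 0.992 to 0.993 (Pearson), and the SD of their differences was 0.29 for cultures 1 and 2, 0.27 for 1 and 3, and 0.26 for 2 and 3; genes are not independent replicates. The spread was counted over the 13212 genes above the reference in at least 1 culture, a filter that lets a gene in through its highest culture. Their median SD was 0.135 and their median range, highest minus lowest, was 0.26. A range of at least 2-fold was seen for 352 genes (2.66%), of at least 1.5-fold for 1480 (11.2%), and of at least 4-fold for 49. Without culture 1 the 2-fold count was 161, without culture 2 it was 154 and without culture 3 it was 206. Culture 1 was the farthest from the other 2 for 151 of the 352 genes (42.9%, against 36.3% of all genes passing the filter), culture 2 for 116 (against 30.9% of all) and culture 3 for 85 (24.1% against 32.8%).

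The spread was larger at higher levels. With all genes ranked by level and cut into 5 bins of equal size, the median SD was 0.091 in the lowest bin, then 0.090, 0.112 and 0.157, and 0.147 in the highest bin.

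The genes that spread most fell into a few orders of the cultures. Of the 352 genes, 124 (35.2%) ran from culture 1 lowest through 3 to culture 2 highest, an order held by 21.5% of all genes passing the filter. A further 108 (30.7%) ran from culture 2 lowest through 1 to 3 highest, against 14.8% of all. Gpd1, the glycerol phosphate dehydrogenase that feeds triglyceride synthesis, had the largest range of all genes, at 7.49, 11.53 and 9.99, or 16.5-fold. Ndufa4l2, a mitochondrial protein induced at low oxygen, was next at 11.18, 7.45 and 10.70, or 13.3-fold, and was the gene in which culture 2 stood farthest from the others.

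Of the 20 largest ranges, 11 had the order with culture 1 lowest and culture 2 highest. Retn, the fat cell hormone resistin, measured 9.28, 12.51 and 11.61. Cd36, a fatty acid transporter, measured 7.54, 10.63 and 9.32, and Cidec, a lipid droplet protein, 7.86, 10.92 and 9.42. Tshr and Mc2r, receptors for thyrotropin and corticotropin that fat cells carry, measured 4.64, 7.94 and 6.73 and 7.17, 10.10 and 9.05. Tshr was below the reference in culture 1. Adig, Cth, Aldh3b2, Tmcc3 and Itga6 had the same order, with ranges between 2.49 and 2.75 on the log2 scale. In culture 1, Tmcc3 at 5.25 and Itga6 at 5.01 were below the reference, so their ranges rest on a value not above background.

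A further 8 were lowest in culture 2 and highest in culture 3. Ero1a, an oxidase of the endoplasmic reticulum, measured 11.92, 10.21 and 13.00, and Eno2, a glycolytic enolase, 9.42, 7.39 and 10.31. Itgb3, the beta chain of the vitronectin receptor, measured 8.77, 6.96 and 9.72. Hilpda, Ankrd37 and Nos2 had ranges of 2.55 to 2.60. Nos2, at 5.17, was below the reference in culture 2. Ifit1 and Usp18, both induced by interferon, measured 6.26, 5.77 and 8.44 and 6.91, 6.11 and 8.70, so that culture 3 stood alone.

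**Figure D4:**
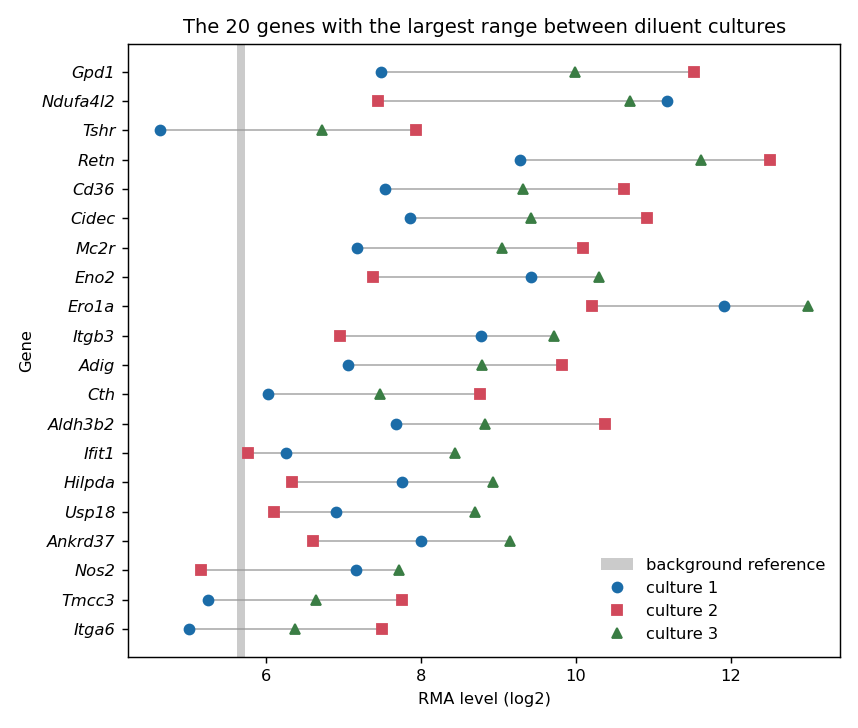
RMA level (log2, x axis) of the 20 genes with the largest range between the diluent cultures (rows), in culture 1 (circles), 2 (squares) and 3 (triangles); the grey band is the background reference. In the genes from Gpd1 to Itga6 the circle or the square is the lowest point, never the triangle.

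Other genes in which a culture stood apart were Srsy (6.59, 4.67 and 4.73, with 19 probe sets of this multicopy gene that may share probes) for culture 1, and the synaptic gene Nxph4, the tubulin Tubb4a and the T cell costimulator Tnfsf9 for culture 2. In the last 3, culture 2 lay 2.01 to 2.09 log2 units below the nearer of the other cultures, and Tubb4a, at 5.52, was below the reference there. For culture 3 they were Trib3, a stress-induced pseudokinase, at 6.92, 6.38 and 8.69, and the protease inhibitor Serpinb1a at 9.12, 8.75 and 7.27. The aggrecanase gene Adamts5 measured 10.13 and 9.56 in cultures 1 and 2 and was lower by a further 1.56 log2 units in culture 3.

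Gene lists differed in how they spread, and each difference between cultures rests on 1 array per culture, from separately processed experiments. The fat cell list was lowest in culture 1 for 17 of 21 genes, against 41.2% of all genes, and highest in culture 2 for 17, against 36.3%. Its median deviation from the mean of the 3 cultures was −0.51, 0.41 and 0.14 in cultures 1, 2 and 3, and 10 of its genes had a 2-fold range against 2.66% of all. Fabp4, the fatty acid binding protein of fat cells, measured 10.09, 11.86 and 11.47, and Scd1, a fatty acid desaturase, 11.96, 13.26 and 12.88. Plin1 and Dgat2, for a lipid droplet coat and a triglyceride synthase, measured 9.43, 11.37 and 10.84 and 8.83, 10.74 and 10.08; both were picked after their values were seen. Cebpb, an early factor of fat cell formation, ran otherwise with 8.17, 7.84 and 8.69.

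Cholesterol synthesis was highest in culture 2 for all 17 genes, against 36.3% of all genes, with a median deviation of 0.51 there and −0.38 and −0.16 in cultures 1 and 3. Hmgcs1, which makes the precursor HMG-CoA, measured 8.50, 9.87 and 9.20, and Nsdhl, a sterol dehydrogenase, 9.40, 10.44 and 9.60. Idi1, isopentenyl diphosphate isomerase, had the largest range of the list, at 6.55, 8.63 and 7.22, and was picked for it. The 22 genes of oxidative phosphorylation were also all highest in culture 2, by less: the median deviations were −0.16, 0.24 and −0.09, and 1 gene, the cytochrome gene Cycs, had a 2-fold range (10.98, 12.29 and 11.88).

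Genes of the acute phase and complement list were above the reference in 9 of 22 cases (40.9%, against 61.7% of all genes). Lcn2, the iron-trapping lipocalin, measured 10.78, 12.75 and 12.17, Hp, haptoglobin, 10.91, 11.94 and 11.22, and Orm1, an orosomucoid, 8.23, 10.33 and 9.32. These were the 3 genes of the list with a 2-fold range, and each was lowest in culture 1 and highest in culture 2. The complement inhibitor Serping1 measured 11.52, 11.37 and 11.03.

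Genes that respond to low oxygen ran in another order. The list was compiled after the values had been seen, so its counts are a description only. Of 32 genes 28 (87.5%, against 61.7% of all genes) were above the reference. Of these 28, 24 were lowest in culture 2 against 27.6% of all genes, and 24 were highest in culture 3 against 34.6%. The median deviations were 0.08, −0.77 and 0.72, and 22 genes had a 2-fold range. Slc2a1, the glucose transporter GLUT1, measured 11.80, 10.17 and 12.51, and Bnip3, a mitophagy receptor, 11.53, 11.13 and 12.30. Vegfa, the endothelial growth factor, measured 9.99, 9.38 and 10.74. The 4 that were not lowest in culture 2 were Lox, Angptl4, Pfkfb4 and Pfkfb3, with Pfkfb3 at 5.81, 6.99 and 6.52. Car9, a carbonic anhydrase often used as a marker of hypoxia, stayed below the reference at 5.09, 5.15 and 5.44.

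Glycolysis, which shares members with the hypoxia list, was lowest in culture 2 for 14 of 18 genes, against 27.6% of all genes, and highest in culture 3 for 14, against 34.6%. Ldha, lactate dehydrogenase, measured 12.53, 12.34 and 12.97 and Pgk1, phosphoglycerate kinase, 12.01, 11.47 and 12.35. Ldhb, the other lactate dehydrogenase subunit, was highest in culture 1 with 10.59, 10.35 and 10.10. Of 19 genes that respond to unfolded proteins or to a lack of amino acids, 17 were highest in culture 3, against 34.6% of all genes. Hspa5, the chaperone BiP, measured 11.76, 11.56 and 12.63, and Ddit3, the stress factor CHOP, 9.28, 8.79 and 10.72. Asns, asparagine synthetase, was nearly level at 11.71, 11.81 and 11.77.

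Interferon-stimulated genes were above the reference in 27 of 31 cases (87.1%, against 61.7% of all genes). Of the 29 above it in at least 1 culture, 19 were highest in culture 3, against 34.6% of all genes. Of these 29, 21 were lowest in culture 2, against 27.6%. Ifitm3 and Ifitm2, which block virus entry, measured 12.55, 12.41 and 12.31 and 12.23, 12.26 and 12.17, near level in all cultures. Isg20, Ifit3, Oasl2, Usp18, Ifit1 and Rsad2 were the 6 with a 2-fold range (2.66% of all genes), all highest in culture 3; Oasl2 measured 8.10, 6.94 and 9.24. Mx1 and Mx2 were below the reference in all 3 cultures, with 3.79, 3.78 and 3.78 for Mx1.

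Cell division genes were all above the reference, 40 of 40, against 61.7% of all genes. Of the 40, 31 were highest in culture 1 against 29.1% of all genes, while 30 were lowest in culture 3 against 31.1%. The median deviations were 0.36, −0.09 and −0.29. Mki67, a marker of cycling cells, measured 9.39, 8.82 and 8.52, and the mitotic kinase Plk1 9.65, 8.74 and 8.44. Ccnd1, cyclin D1, measured 10.25, 9.53 and 8.84. Cdk4 and Pcna spread less, with 12.46, 12.63 and 12.53 and 10.58, 10.41 and 10.44. Immediate early genes were lowest in culture 2 for 24 of 28, against 27.6% of all genes, with Fos at 7.86, 6.16 and 6.74, Fosb at 8.42, 6.80 and 7.34, and Ier3 at 7.69, 5.89 and 8.30.

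The 22 genes of the ribosomal protein list had a median SD of 0.066 (0.042 without culture 1) and a median percentile of 97.5. The 24 cytoskeletal genes had a median SD of 0.135 (0.066 without culture 3), equal to that of all genes, and a median percentile of 98.2. Neither list had a gene with a 2-fold range. The median SD of all genes was itself 0.102 to 0.114 with 1 culture left out. List SDs with a culture left out are therefore not comparable with those over all cultures. Among matrix lists, glycoproteins and collagen chains had median SDs near that of all genes, 0.141 and 0.126, with 2 and 1 genes past 2-fold. Of the 33 glycoproteins, 20 were highest in culture 1, against 29.1% of all genes, and 17 lowest in culture 2, against 27.6%. Their median deviations were small, at 0.08, −0.08 and −0.06. Proteases and inhibitors had a median SD of 0.212, collagen enzymes 0.274 and proteoglycans 0.334. Without culture 1 the collagen enzymes had 0.144 and the proteoglycans 0.172. Without culture 2 the proteoglycans had 0.161 and the collagen chains 0.068, and without culture 3 the collagen chains had 0.066.

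**Figure D5:**
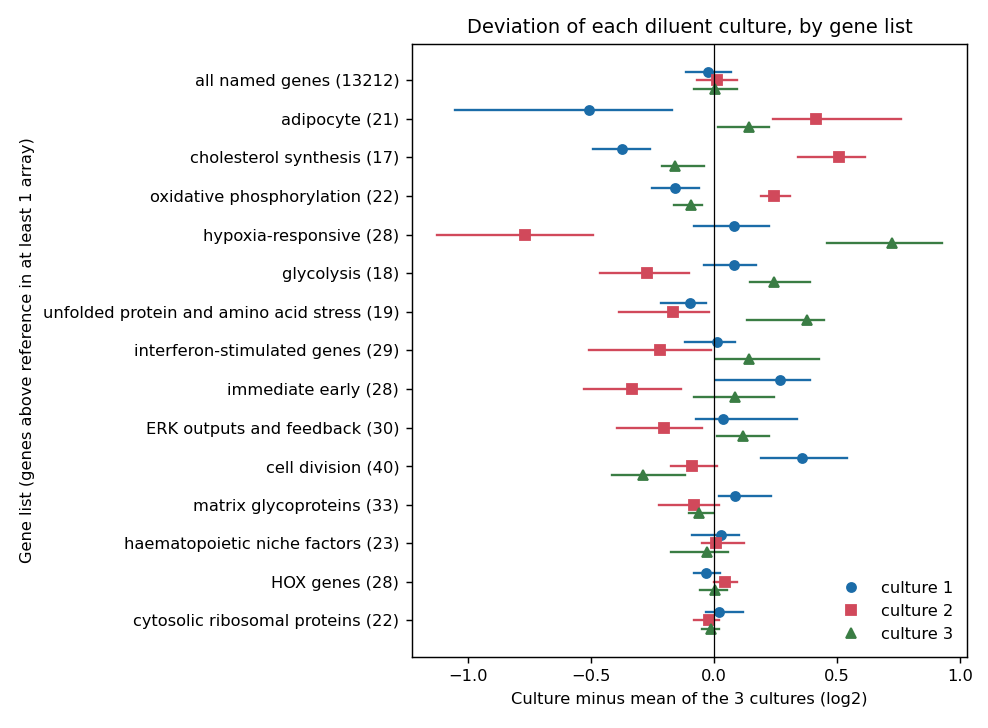
Deviation of each diluent culture from the mean of the 3 (log2, x axis) for the genes of 15 sets above the reference in at least 1 culture (rows, with their number). Symbols are medians and lines run from the lower to the upper quartile; the adipocyte, cholesterol and hypoxia-responsive rows separate the cultures, with medians of −0.51, 0.51 and −0.77 at their extremes, and the ribosomal, HOX and niche factor rows stay within 0.05 of 0.

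Promoters of the genes in the lists that moved between cultures are shown for the letters they share, in 250 bases before the RefSeq start (GRCm38.p6). Each window is from the member of its list with the largest range among those holding the motif. Promoters of a single chromosome were left out of this choice. Capitals mark the motif on either strand. The motifs were ACGTG, the core of the hypoxia response element, a pair of GAAA runs 2 bases apart, the core of the interferon response element, and CCAAT, the box bound by NF-Y.
Ero1a, chr14:45318573-45318822, minus strand, ACGTG: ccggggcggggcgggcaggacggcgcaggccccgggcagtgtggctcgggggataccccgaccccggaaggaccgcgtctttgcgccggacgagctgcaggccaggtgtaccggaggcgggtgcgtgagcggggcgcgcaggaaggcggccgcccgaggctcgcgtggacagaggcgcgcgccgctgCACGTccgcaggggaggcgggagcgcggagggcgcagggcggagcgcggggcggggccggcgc
Ifit1, chr19:34640639-34640888, plus strand, GAAA pair: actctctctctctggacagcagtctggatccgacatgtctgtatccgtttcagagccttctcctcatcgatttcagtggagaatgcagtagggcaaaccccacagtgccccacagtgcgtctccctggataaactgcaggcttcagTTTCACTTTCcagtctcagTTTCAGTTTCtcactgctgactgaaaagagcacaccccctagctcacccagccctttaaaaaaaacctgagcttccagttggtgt
Plk1, chr7:122159185-122159434, plus strand, CCAAT: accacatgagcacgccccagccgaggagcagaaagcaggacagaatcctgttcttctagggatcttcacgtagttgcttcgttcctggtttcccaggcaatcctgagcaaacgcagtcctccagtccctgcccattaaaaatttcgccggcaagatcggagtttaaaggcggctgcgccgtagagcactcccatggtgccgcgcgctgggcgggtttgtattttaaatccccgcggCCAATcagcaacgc
Idi1, chr13:8885356-8885605, plus strand, CCAAT: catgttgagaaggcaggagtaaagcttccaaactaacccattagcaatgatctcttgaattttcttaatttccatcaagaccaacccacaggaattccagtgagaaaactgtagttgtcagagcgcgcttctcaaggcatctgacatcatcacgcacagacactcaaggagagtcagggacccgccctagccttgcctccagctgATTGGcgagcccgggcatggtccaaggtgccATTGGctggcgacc

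In windows of 300 bases, from 250 before the start to 50 after it, ACGTG on either strand was present in 57.9% of 38 promoters of the hypoxia list and in 19.6% of all 32851 promoters. The GAAA pair was present in 40.6% of 32 promoters of interferon-stimulated genes and in 3.44% of all. CCAAT was present in 27 of 36 promoters of cell division genes, in 82.4% of 17 of cholesterol synthesis genes and in 37.4% of all. CCAAT and ACGTG were also frequent elsewhere. CCAAT was also in 78.9% of 19 promoters of the unfolded protein list, 60.9% of 23 of HOX genes and 58.8% of 17 of smooth muscle genes. ACGTG was in 53.3% of 30 promoters of the glycolysis list, which shares members with the hypoxia list. It was in 26.6% and 27.8% of promoters in the 2 highest of the 5 level bins. A pair of AGGTCA runs 1 base apart is a repeat bound by nuclear receptors. It was present in 0 of 21 promoters of fat cell genes and in 13 of all 32851. At a share of 0.04% over all promoters, 0 matches in 21 say nothing about the fat cell list. None of these motifs contains another, a gene may have several promoters, and a match is a run of letters, not a site in use.

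Promoter composition also changed along the level rank. The median GC content of the windows went from 46.0% in the lowest of the 5 bins to 62.3% in the highest, and the share with TATAAA from 24.7% to 6.47%. With only genes above the reference, cut into 5 bins again, the lowest and the highest bin had 58.0% and 62.2% GC, and 9.27% and 7.01% held TATAAA.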

How the data were processed

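The authors normalised the Affymetrix arrays with RMA and deposited log2 values; statistics were run in Partek, and no version of either is given in the sources used here. RMA fits arrays together and equalises their distributions, so a change shared by most genes cannot be seen. No further normalisation was applied, and the number of unused columns was 0.

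Probe sets naming 1 gene symbol were kept (1621 named several and 5443 none); 21698 were found by gene number in a RefSeq table of GRCm38.p6. Of 19938 genes, 999 had several probe sets and took the one with the highest diluent mean. Percentiles rank means over the 3 arrays. With 1 group, no test was made, and the number of arrays limits the precision.

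The members, the 40 gene lists and the motifs were chosen with earlier results of these data known. Named genes are the 30 highest, up to 6 of each list by mean, list members of other cell types above the reference, genes the study names, the 20 largest ranges, the 5 largest gaps per culture and genes that define a list; others were picked after their values were seen. Scripts in Python 3.11.15 with pandas 2.3.3, numpy 2.4.6 and matplotlib 3.10.9 were tested on simulated data.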

Additional observations from a re-analysis of the deposited data

How the results depend on the processing

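Alternatives were another quantile normalisation, median centring, averaging all probe sets of a gene, no filter, the 90th and 99th chemoreceptor percentiles or the median of all probe sets as reference, and each culture left out. Of 158 alternatives for the main counts and medians, 149 stayed within their tolerance (1.5-fold for counts and SDs) and 9 did not, all with 1 culture left out. Of these, 3 concern the genes with a 2-fold range, 352 with all cultures and 154 to 206 with 1 left out (161 without replicate 1, 154 without replicate 2, 206 without replicate 3); by construction, a range over fewer cultures is smaller. The other 6 are median SDs of lists: cell division 0.342 (0.184 to 0.464, lowest without replicate 1), unfolded protein 0.331 (0.102 to 0.304, lowest without replicate 3) and, lowest without replicate 2, cholesterol synthesis 0.519 (0.164 to 0.665), oxidative phosphorylation 0.227 (0.104 to 0.277), immediate early 0.345 (0.221 to 0.400) and hypoxia-responsive 0.775 (0.499 to 1.05). Genes above the reference numbered 12349 to 12697 with 1 culture left out, and the median SD of genes was 0.102 to 0.114. Of 833 alternatives for single lists and genes 46 moved: 16 counts of list members near the reference, 29 list SDs, and the hypoxia list's median percentile, which was 81.5 without replicate 1. No paired analysis was possible because the diluent cultures form 1 group and no test was made. Low signals limit the profile: a gene below the reference may still be transcribed.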
